A study of Mus musculus with 12 samples.

Results

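Brain endothelial and barrier genes were followed in hippocampal RNA from control mice and from presenilin knockout mice. They are Cldn5, Pecam1, Flt1, Tek, Vwf, Ly6c1, Ly6a, Slco1a4, Slc2a1 and Abcb1a. They were chosen by name as genes of endothelial junctions, transport and cell surface, and their rows were read in all 12 tables. All 10 were among the 21878 genes of every deposited table, and all 10 passed the filter on low values, which 12689 genes passed.

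Brain capillaries are lined by endothelial cells that are sealed to one another by tight junctions and carry dedicated transporters, so that nutrients enter the brain by selective carriage and many drugs and bile acids are pumped back to the blood. Vascular endothelial growth factor and angiopoietin receptors maintain these cells, and Wnt ligands from neighbouring neural cells keep the barrier program on. Barrier transport is known to vary with the time of day in several species.

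The study compared the hippocampus of wild-type mice (WT) with that of mice with a conditional double knockout of the presenilins (DKO), the catalytic subunits of gamma-secretase. Labels name the time as Day or Night, and the mice were killed under sodium pentobarbital at either 9 a.m. or 9 p.m. There were 3 libraries in each of 4 groups, Day WT, Day DKO, Night WT and Night DKO, and every library came from total RNA depleted of ribosomal RNA. The sources used here do not give the Cre driver, strain, age or sex. The labels do not tie libraries to individual mice, so every p-value reflects the spread among these libraries alone, part of which may be technical.

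Psen2 served as the check of the genotype labels. Its level was 1.47 to 2.87 FPKM (fragments per kilobase of transcript, scaled to the library's total of fragments) in Day WT and 2.94 to 3.64 FPKM in Night WT, against 0.275 to 0.520 FPKM in Day DKO and 0.351 to 0.594 FPKM in Night DKO, and it fell in DKO by day (log2 difference -1.08, adjusted p = 0.00982) and at night (-1.57, adjusted p = 0.000785). Absolute depth is unknown, because the tables hold no counts. Estimated from steps between low values, depth ranged from 0.908 to 1.06 relative to the first Day WT library. These estimates are rough, because the most common step held only 14 to 64 genes of 640 to 721 in the other 11 libraries. One library stood apart from its group: 4 Y-linked genes summed to 0.0308 FPKM in Night WT replicate 1 and to between 14.1 and 18.1 FPKM in the other 11 libraries. Night WT thus mixed libraries with and nearly without Y-linked RNA, in every comparison that uses that group. Calls of the 10 genes that rest on Night WT replicate 1 are also given without it. Calls of other single genes are not.

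Defining genes of endothelial cells were detected in every library. Cdh5, which encodes the endothelial cadherin, ranged from 1.18 to 2.08 FPKM over the 12 libraries, Tie1, an orphan receptor of the angiopoietin system, from 1.23 to 2.22 FPKM, and Kdr, the main signalling receptor for vascular endothelial growth factor, from 1.39 to 2.62 FPKM. The tissue itself carried its neuronal markers, with a summed level of 659 to 761 FPKM over 10 neuronal genes and none called in any comparison, although 1 was called lower at night after quantile normalization and after TPM scaling.

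Upstream sequence is shown for 4 of the 5 members called between night and day, the ones with a promoter in the reference table, so that the letters can be read beside those values. RefSeq promoter windows (build GRCm38.p6, 250 bases before to 50 bases after a start) were found for 7 of the 10 members, 8 windows in all, because Ly6c1 has 2. Each sequence below is the part of its window that lies outside the annotated gene, read 5′ to 3′ on the strand of the gene. They are Cldn5 (chr16:18776597-18776846, plus strand), Ly6c1 (chr15:75048921-75049087, minus strand), Slco1a4 (chr6:141856285-141856470, minus strand) and Slc2a1 (chr4:119108495-119108744, plus strand). Capitals mark matches, read on either strand, to the E-box CACGTG, the ROR and REV-ERB half-site AGGTCA, the ETS core GGAAG, the core ACGTG of hypoxia-inducible factor sites, which is contained in CACGTG, and the glucocorticoid receptor half-site AGAACA.
Cldn5: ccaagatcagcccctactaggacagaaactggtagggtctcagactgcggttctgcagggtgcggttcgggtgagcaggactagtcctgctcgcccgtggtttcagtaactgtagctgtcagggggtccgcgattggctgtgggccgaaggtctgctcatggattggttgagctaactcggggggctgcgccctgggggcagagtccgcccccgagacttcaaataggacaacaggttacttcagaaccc
Ly6c1: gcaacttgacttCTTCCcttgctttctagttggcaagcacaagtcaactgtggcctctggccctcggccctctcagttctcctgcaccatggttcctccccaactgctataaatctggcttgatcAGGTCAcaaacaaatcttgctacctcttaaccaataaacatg
Slco1a4: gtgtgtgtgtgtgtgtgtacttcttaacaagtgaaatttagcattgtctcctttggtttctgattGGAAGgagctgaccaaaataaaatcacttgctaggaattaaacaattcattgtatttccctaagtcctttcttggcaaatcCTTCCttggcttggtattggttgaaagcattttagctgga
Slc2a1: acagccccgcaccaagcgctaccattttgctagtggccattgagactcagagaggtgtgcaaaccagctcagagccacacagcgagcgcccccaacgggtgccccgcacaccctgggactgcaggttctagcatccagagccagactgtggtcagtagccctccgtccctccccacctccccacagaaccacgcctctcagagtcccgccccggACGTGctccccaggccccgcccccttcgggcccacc
Over the whole 300-base windows, CACGTG was in 0 of the 8 member windows and in 7.15% of all 32851 promoters. AGGTCA was in 1 member window, that of Ly6c1, and in 16.3% of all promoters. ACGTG was in 1, that of Slc2a1, and in 19.6% of all promoters. AGAACA was in the windows of Tek and Abcb1a and in 19.0% of all promoters, and GGAAG, a short and common string, was in 5 member windows and in 71.4% of all promoters. These matches describe letters only.

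Per unit of transcript length, Cldn5 and Slc2a1 were the most abundant of the 10, with means over the 12 libraries of 18.8 and 18.6 FPKM. Ly6a followed at 6.62 FPKM, then Slco1a4 at 4.31, Ly6c1 at 3.93, Abcb1a at 3.73, Flt1 at 2.96, Pecam1 at 2.18, Vwf at 2.17 and Tek at 1.52 FPKM. The library ranges of neighbours in this order overlapped throughout, except that the lowest Slc2a1 value, 13.5 FPKM, lay above the highest Ly6a value, 9.24 FPKM. The order of the leading pair depended on the group. In Day WT every Cldn5 value (22.1 to 26.6 FPKM) was above every Slc2a1 value (14.3 to 15.1 FPKM), whereas in Night WT every Slc2a1 value (19.1 to 25.0 FPKM) was above every Cldn5 value (12.7 to 16.9 FPKM). In Day DKO and Night DKO the ranges of these genes overlapped.

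**Figure D1:**
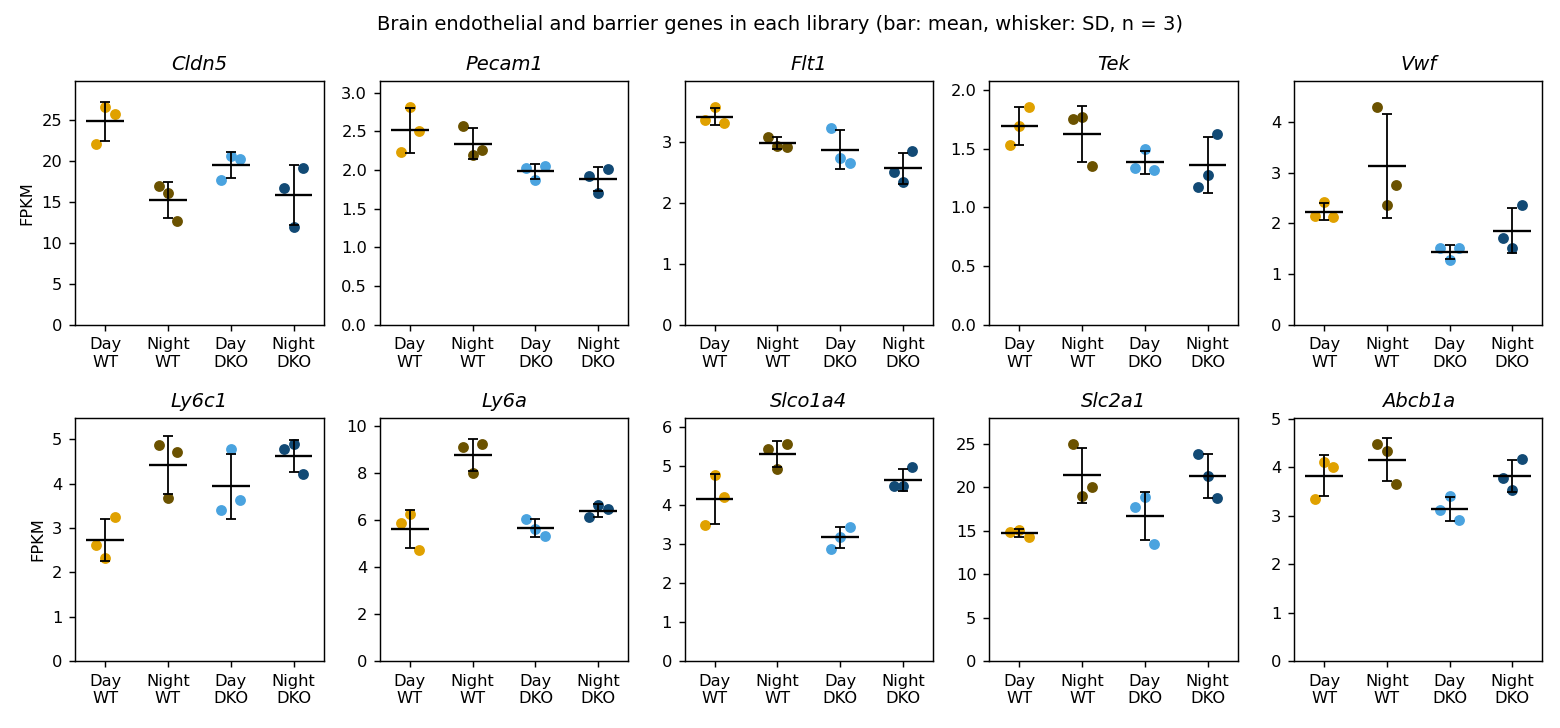
FPKM of the 10 genes in each library (points), with the mean (bar) and SD (whisker) of each group of 3 libraries; every vertical axis starts at 0. Cldn5 is highest in Day WT at 22.1 to 26.6 FPKM, Ly6a is highest in Night WT at 8.01 to 9.24 FPKM, and the Vwf mean of Night WT contains 1 high library at 4.30 FPKM.

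Night and day differed in 5 of the 10 genes when both genotypes were averaged. Cldn5 fell at night, and Ly6c1, Ly6a, Slco1a4 and Slc2a1 rose. These calls come from limma on log2(FPKM + 1) with Benjamini-Hochberg adjustment over all 12689 genes, 2-sided, and a gene was called at an adjusted p under 0.05. By the same rule 6.07% of all genes were called, 5.19% higher and 0.875% lower. That split of all called genes, 659 higher and 111 lower, depends on the scaling of the libraries: it became 207 higher and 282 lower after median-of-ratios scaling, 231 and 345 after quantile normalization, and 146 and 359 when each library was scaled to the same total (TPM scaling). TPM scaling raised each total from 151059 to 175692 FPKM to 1000000 before 1 was added. It therefore also lowered the weight of the added 1. The 770 calls over all genes became 243 without Day WT replicate 1, 322 to 412 without any 1 Night WT library, 382 without Day DKO replicate 1 and 349 to 490 without any 1 Night DKO library, and 621 to 854 without any of the others. In bulk tissue, fewer cells of a type and less RNA per cell cannot be told apart, here and below.

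Within genotypes fewer genes were called. In WT alone 3 of the 10 were called, Cldn5 lower and Ly6c1 and Ly6a higher, against 1.67% of all genes (1.51% higher and 0.158% lower, with 192 and 20 genes, or 22 and 33 genes under median-of-ratios scaling, 26 and 46 under quantile normalization and 17 and 49 under TPM scaling). The WT count of all genes rested on single libraries. It was 212 with every library, 1 without Day WT replicate 1 or any 1 Night WT library, 41 without Day WT replicate 2, 64 to 86 without any 1 Night DKO library, 132 without Day DKO replicate 3, and 23 with only the groups compared. In DKO alone none of the 10 was called, against 0.299% of all genes (0.181% higher, 0.118% lower), and 3 had an unadjusted p under 0.05. Those 38 calls over all genes became 19 to 22 without Day DKO replicate 2 or 3 or Night DKO replicate 2 or 3. The libraries of night and day did not overlap for 6 of the 10 genes in WT (4 higher and 2 lower at night), where 28.7% of all genes did not overlap (24.3% higher, 4.37% lower). In DKO they did not overlap for 3, all higher at night, where 19.4% of all genes did not overlap (12.9% higher, 6.44% lower). Day WT serves both the day comparison of genotypes and the comparison of times in WT, so a gene that stands out in Day WT, as Cldn5 and Ly6c1 did, enters both.

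DKO and WT differed in 1 of the 10 genes when both times were averaged: Vwf fell, in a comparison where 1.88% of all genes were called (1.0% higher, 0.875% lower). Those were 127 genes higher and 111 lower, and 138 and 180 after median-of-ratios scaling, 126 and 154 after quantile normalization and 138 and 162 after TPM scaling. The total of 238 became 80 to 126 without Day WT replicate 2, Day DKO replicate 2 or 3, Night WT replicate 1 or 3 or Night DKO replicate 2 or 3. By day none of the 10 was called, against 1.18% of all genes (0.796% higher, 0.386% lower), and at night none was called, against 0.0236% of all genes, all of them lower. The 150 calls by day became 60 or 13 when Day WT replicate 1 or 2 was dropped, 23 or 19 when Day DKO replicate 2 or 3 was, 85 when the third Night WT library was, and 50 with only the groups compared. The 3 calls at night became 38, of which 33 were higher, when Night DKO replicate 1 was dropped, 6 and 5 when Day WT replicate 1 and Day DKO replicate 2 were dropped in turn, and 15 with only the groups compared. The unadjusted p was under 0.05 for 7 of the 10 by day, where 17.0% of all genes were under it, and for 4 at night, where 9.18% were. By day the DKO and WT libraries did not overlap for 7 genes, 6 lower and 1 higher in DKO, against 19.6% of all genes (5.26% lower and 14.3% higher). At night they did not overlap for 3 genes, all lower in DKO, against 15.2% of all genes (9.48% lower, 5.73% higher). Averaged over times 8 of the 10 had an unadjusted p under 0.05, as did 16.2% of all genes. The median log2 difference over the 10 genes was -0.20 by day, beside 0.038 over all genes, and -0.16 at night, beside -0.0090 over all genes.

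No member had a night-to-day difference that was shown to depend on genotype. The interaction was called for 0 of the 10 genes and for 0.0% of all genes with limma, and 1 member, Ly6a, had an unadjusted p under 0.05, as 8.66% of all genes did.

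**Figure D2:**
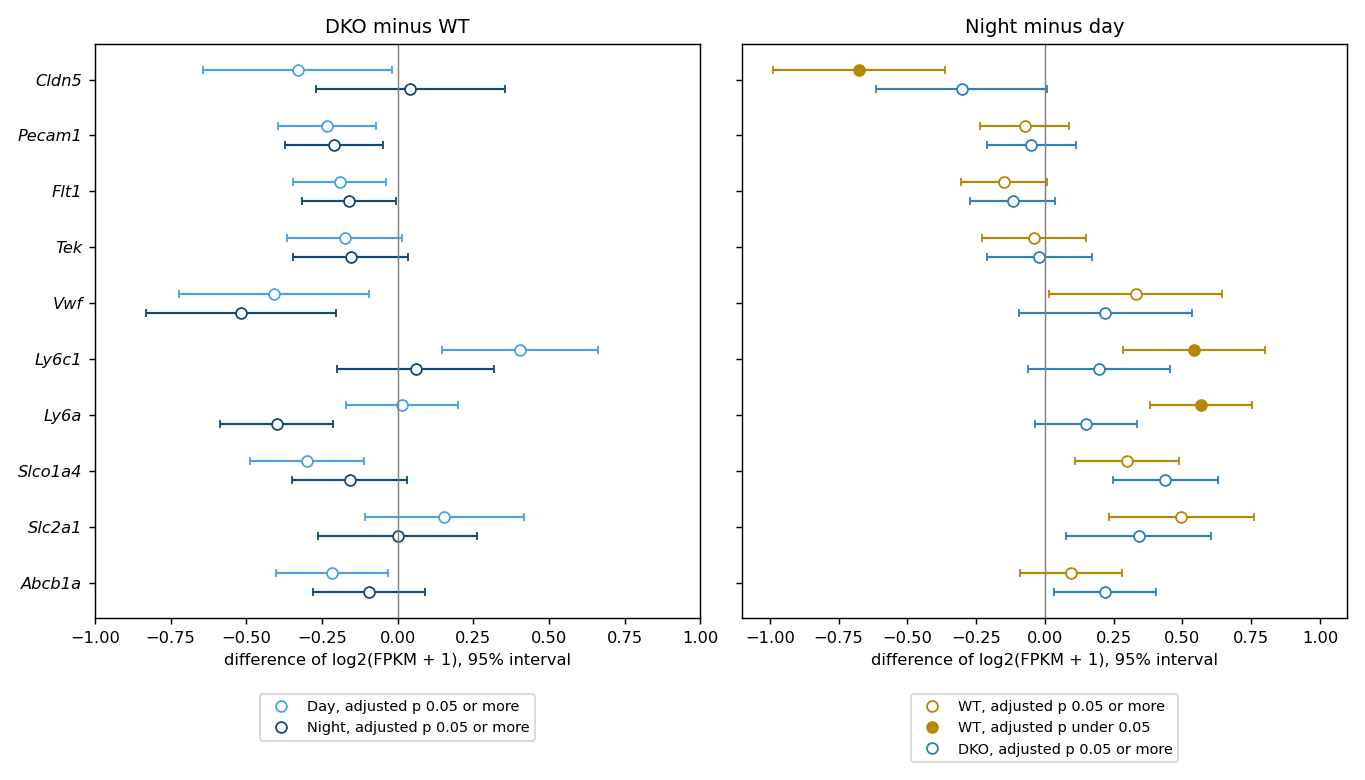
Differences of log2(FPKM + 1) with 95% intervals from the fit over all genes, DKO minus WT by day and at night (left) and night minus day in WT and DKO (right). Filled points have an adjusted p under 0.05 and are Cldn5, Ly6c1 and Ly6a in WT; all others are open.

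Gene positions are those of RefSeq on GRCm38.p6. Cldn5 (chr16:18776847-18778262), claudin 5, is the main claudin of the tight junctions between brain endothelial cells. Its level was 22.1, 26.6 and 25.8 FPKM in Day WT replicates 1, 2 and 3 and 17.7, 20.5 and 20.3 FPKM in Day DKO. At night it was 16.9, 16.0 and 12.7 FPKM in WT and 16.6, 11.9 and 19.1 FPKM in DKO. All 3 Day WT libraries lay above the other 9, and within DKO the night libraries overlapped those of the day. In WT the night mean (15.2 ± 2.20 FPKM, SD, n = 3) was 0.613 times the day mean (24.8 ± 2.38 FPKM, SD, n = 3), a log2 difference of -0.68 (SE 0.144, adjusted p = 0.0429). In DKO the log2 difference was -0.30 (SE 0.144, adjusted p = 0.347), and the interaction was 0.37 (SE 0.203, adjusted p = 0.601). Averaged over genotypes Cldn5 fell by 0.49 on the log2 scale (SE 0.102, adjusted p = 0.0204). Without Night WT replicate 1 the averaged difference was -0.53 (adjusted p = 0.0332), and the WT difference was -0.75 but no longer called (adjusted p = 0.103). The WT call was also lost without any other 1 WT library, without Day DKO replicate 3 or without Night DKO replicate 1. Keeping genes of low values or adding a block for replicate number ended it as well. So did adding the fibroblast or the endothelial level as a covariate or fitting only the groups compared. The adjusted p of the WT call was 0.0291 to 0.115 over all alternatives, whereas the averaged call was kept without each library in turn. Between genotypes the day means were 24.8 ± 2.38 FPKM in WT and 19.5 ± 1.57 FPKM in DKO (SD, n = 3), with no overlap but an adjusted p of 0.269, and at night 15.2 ± 2.20 and 15.9 ± 3.66 FPKM.

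Pecam1 (chr11:106654213-106715281) encodes an adhesion molecule at the contacts of endothelial cells, also found on platelets and leukocytes. Its level was 2.23, 2.82 and 2.50 FPKM in Day WT, 2.03, 1.87 and 2.05 FPKM in Day DKO, 2.57, 2.20 and 2.26 FPKM in Night WT and 1.93, 1.71 and 2.02 FPKM in Night DKO. Each WT library was above every DKO library of either time. The log2 difference of DKO from WT was -0.23 by day (SE 0.0748, adjusted p = 0.145) and -0.21 at night (SE 0.0748, adjusted p = 0.422). Averaged over times it was -0.22 (SE 0.0529), and its adjusted p of 0.0522 missed the threshold. It passed under median-of-ratios scaling (adjusted p = 0.0364), quantile normalization (0.0429), TPM scaling (0.0397), quality weights (0.0479) and without Day WT replicate 1 (0.0403).

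Flt1 (chr5:147561604-147726438) encodes vascular endothelial growth factor receptor 1, which binds the factor tightly and, in its soluble form, acts as a trap for it. Its level was 3.36, 3.57 and 3.31 FPKM in Day WT, 3.24, 2.73 and 2.65 FPKM in Day DKO, 3.09, 2.93 and 2.92 FPKM in Night WT and 2.50, 2.35 and 2.85 FPKM in Night DKO. At each time all 3 DKO libraries were below all 3 WT libraries. The log2 difference of DKO from WT was -0.19 by day (adjusted p = 0.204), -0.16 at night (adjusted p = 0.526) and -0.18 averaged over times (SE 0.0507, adjusted p = 0.0998).

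Tek (chr4:94739086-94874976) encodes Tie2, the receptor for angiopoietins. It was the lowest of the 10, at 1.54, 1.69 and 1.86 FPKM in Day WT, 1.34, 1.50 and 1.32 FPKM in Day DKO, 1.75, 1.77 and 1.35 FPKM in Night WT and 1.17, 1.28 and 1.63 FPKM in Night DKO. By day the DKO libraries lay below the WT libraries, and at night the groups overlapped. The log2 difference of DKO from WT averaged over times was -0.16 (SE 0.0621, adjusted p = 0.205). Night and day means were 1.63 ± 0.238 and 1.70 ± 0.159 FPKM in WT and 1.36 ± 0.237 and 1.39 ± 0.0974 FPKM in DKO (SD, n = 3).

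Vwf (chr6:125552948-125686679) encodes von Willebrand factor, the clotting glycoprotein that endothelial cells store and secrete, and which is known to be richer in veins and larger vessels than in capillaries. It measured 2.14, 2.43 and 2.13 FPKM in Day WT and 1.52, 1.27 and 1.52 FPKM in Day DKO, so the day groups did not overlap. At night it measured 4.30, 2.36 and 2.76 FPKM in WT and 1.70, 1.51 and 2.36 FPKM in DKO. The highest DKO value at night was just above the lowest WT value, and the highest WT value was in Night WT replicate 1, the library with the low Y-linked sum. The log2 difference of DKO from WT was -0.41 by day (SE 0.145, adjusted p = 0.182) and -0.52 at night (SE 0.145, adjusted p = 0.309). Averaged over times Vwf fell by 0.46 on the log2 scale in DKO (SE 0.102, adjusted p = 0.0388). Without Night WT replicate 1 the averaged difference was -0.37 (adjusted p = 0.0556). The call was also lost when any 1 of 9 further libraries was left out, and kept only without Night WT replicate 2 or Night DKO replicate 3, and it was lost without a filter on low values.

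Ly6c1 (chr15:75044018-75048920) and Ly6a (chr15:74994877-74998031), the latter also known as Sca-1, encode small surface proteins held by a lipid anchor. Brain endothelial cells carry both, and Ly6a is known as an interferon-inducible gene. Ly6c1 measured 2.61, 2.32 and 3.24 FPKM in Day WT, 3.41, 4.77 and 3.64 FPKM in Day DKO, 4.87, 3.67 and 4.72 FPKM in Night WT and 4.77, 4.89 and 4.22 FPKM in Night DKO. The 3 Day WT libraries were below all 9 others. In WT Ly6c1 rose at night by a log2 difference of 0.54 (SE 0.120, adjusted p = 0.0460), from 2.72 ± 0.470 to 4.42 ± 0.653 FPKM (SD, n = 3), or 1.62 times. The corresponding difference in DKO was 0.20 (adjusted p = 0.476), and the interaction was -0.35 (SE 0.169, adjusted p = 0.586). Averaged over genotypes it rose by 0.37 (SE 0.0845, adjusted p = 0.0283), but all 3 scalings ended that call, with adjusted p of 0.0567 to 0.0670, and the call in WT as well. Without Night WT replicate 1 the averaged difference was 0.34 (adjusted p = 0.0621) and the WT difference 0.48 (adjusted p = 0.126). The averaged call was also lost without Day WT replicate 1, Night WT replicate 3, Day DKO replicate 1 or Night DKO replicate 1 or 2, and, of the fits that leave out 1 library, the WT call was kept only without Day WT replicate 3 or Day DKO replicate 1 or 2. Without a filter on low values both calls were lost. The WT call was also lost with a block for replicate number and with only the groups compared. The fibroblast or the endothelial level as a covariate ended the WT call too, and its adjusted p was 0.0200 to 0.164 over all alternatives. By day Ly6c1 was the only member whose DKO libraries all lay above the WT libraries (log2 difference 0.40, SE 0.120, adjusted p = 0.123). Ly6c1 has a near-identical neighbour, Ly6c2, whose reads a counter could assign to either gene. Ly6c2 was listed at 0 in all 3 Night WT libraries and reached at most 0.359 FPKM elsewhere.

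Ly6a measured 5.86, 6.27 and 4.75 FPKM in Day WT, 6.06, 5.64 and 5.31 FPKM in Day DKO, 9.11, 8.01 and 9.24 FPKM in Night WT and 6.11, 6.65 and 6.45 FPKM in Night DKO. Night WT stood apart, with its lowest library above all 9 others. The WT rise from day to night was 1.56 times on the mean (from 5.63 ± 0.789 to 8.79 ± 0.679 FPKM, SD, n = 3), a log2 difference of 0.57 (SE 0.0856, adjusted p = 0.0180). In DKO night libraries also lay above those of the day, with a log2 difference of 0.15 (SE 0.0856, adjusted p = 0.436). The interaction was the largest in size among the 10 genes, -0.42 (SE 0.121, unadjusted p = 0.00451), and did not pass correction over all genes (adjusted p = 0.505). At night the DKO libraries were all below the WT libraries, with a log2 difference of -0.40 (SE 0.0856, adjusted p = 0.194). Averaged over genotypes Ly6a rose by 0.36 (SE 0.0606, adjusted p = 0.00925) at night. Without Night WT replicate 1 this was 0.35 (adjusted p = 0.0278), and the WT difference was 0.54 (adjusted p = 0.0657). The WT call was also lost without Day WT replicate 1 or Night WT replicate 2 or 3, under TPM scaling and with only the groups compared, with adjusted p of 0.0105 to 0.0868 over all alternatives.

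Slco1a4 (chr6:141805438-141856284) encodes an organic anion transporter at the blood-brain barrier, which carries bile acids, steroid conjugates and drugs; reads could be split with its close paralogs. It measured 3.48, 4.75 and 4.21 FPKM in Day WT and 2.88, 3.19 and 3.43 FPKM in Day DKO. At night it measured 5.43, 4.91 and 5.56 FPKM in WT and 4.48, 4.48 and 4.96 FPKM in DKO. In both genotypes every night library was above every day library, and by day every DKO library was below every WT library. Averaged over genotypes Slco1a4 rose at night by a log2 difference of 0.37 (SE 0.0620, adjusted p = 0.00925), and 0.36 without Night WT replicate 1 (adjusted p = 0.0267). Within genotypes the difference missed the threshold, at 0.30 in WT (SE 0.0877, adjusted p = 0.0899) and 0.44 in DKO (SE 0.0877, adjusted p = 0.0608). The log2 difference of DKO from WT was -0.30 by day (SE 0.0877, adjusted p = 0.122) and -0.16 at night (adjusted p = 0.627).

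Slc2a1 (chr4:119108745-119137330) encodes GLUT1, the glucose carrier of the barrier, which astrocytes also make. It measured 14.9, 15.1 and 14.3 FPKM in Day WT, 17.7, 18.9 and 13.5 FPKM in Day DKO, 25.0, 19.1 and 20.1 FPKM in Night WT and 23.8, 21.4 and 18.8 FPKM in Night DKO. In WT the night libraries lay above those of the day, whereas in DKO the lowest night and the highest day value crossed. Averaged over genotypes it rose at night by a log2 difference of 0.42 (SE 0.0861, adjusted p = 0.0199), and 0.36 without Night WT replicate 1 (adjusted p = 0.0436), while TPM scaling ended the call (adjusted p = 0.0542). Within WT the difference was 0.50 (SE 0.122, adjusted p = 0.0589) and within DKO 0.34 (SE 0.122, adjusted p = 0.229). Between genotypes the groups overlapped at both times.

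Abcb1a (chr5:8567091-8748575) encodes a P-glycoprotein that pumps drugs from endothelial cells back to the blood. It measured 3.34, 4.11 and 4.01 FPKM in Day WT, 3.12, 3.40 and 2.91 FPKM in Day DKO, 4.48, 4.32 and 3.65 FPKM in Night WT and 3.77, 3.52 and 4.17 FPKM in Night DKO. Night libraries of DKO were all above its day libraries (log2 difference 0.22, SE 0.0859, adjusted p = 0.263), while those of WT overlapped (0.10, adjusted p = 0.534). Averaged over genotypes the night-to-day difference was 0.16 (SE 0.0607, adjusted p = 0.125), and averaged over times DKO differed from WT by -0.16 (SE 0.0607, adjusted p = 0.220). Its paralog Abcb1b was far lower, at 0.335 to 0.639 FPKM over the 12 libraries.

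The other genes of the same cells and pathways were counted in named lists. Their calls are not given gene by gene with single libraries left out, where the counts of calls over all genes changed as stated above. The endothelial reference list holds 16 genes of endothelial identity that are not members, of which 14 were tested. By day all 14 were below 0 in DKO against WT, beside 37.2% of all genes. Their median log2 difference was -0.14, beside 0.038 over all genes. The 1 called was Erg, a transcription factor of endothelial identity, which fell from 0.626 ± 0.0121 to 0.321 ± 0.0548 FPKM (SD, n = 3, log2 difference -0.30, adjusted p = 0.0479, and 0.0931 after quantile normalization). At night 11 of the 14 were below 0, beside 53.8% of all genes (median -0.13 beside -0.0090), and none was called. Averaged over times 13 were below 0, beside 42.6% of all genes (median -0.12 beside 0.014). The 1 called was Ptprb, a receptor phosphatase of endothelial cells, which fell (log2 difference -0.22, SE 0.0457, adjusted p = 0.0318). Between night and day the list's median was 0.023 beside 0.049 over all genes, and it was below 0 under each scaling (-0.013 after median-of-ratios scaling, -0.015 after quantile normalization, -0.040 after TPM scaling). Cd34, a surface sialomucin, passed the test as higher at night (0.22, adjusted p = 0.0419), but under none of the 3 scalings (0.101 to 0.117).

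The level of this reference list was also added to the model as a covariate. With it, the 5 night-to-day calls averaged over genotypes were all kept, with log2 differences of -0.53 for Cldn5 (adjusted p = 0.0227), 0.34 for Slco1a4 (0.0136), 0.35 for Ly6a (0.0207), 0.39 for Slc2a1 (0.0366) and 0.34 for Ly6c1 (0.0473). The Vwf difference between genotypes was -0.16 with it and was no longer called (adjusted p = 0.901), in a fit where 3 of all 12689 genes were called between genotypes. The Cldn5 difference between genotypes, -0.14 without the covariate (adjusted p = 0.518), was 0.048 with it (adjusted p = 0.980).

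Among junction genes (10 of 12 tested) F11r, which encodes junctional adhesion molecule A, fell in DKO by day (log2 difference -0.49, SE 0.107, adjusted p = 0.0479, and 0.0587 after quantile normalization) and averaged over times (-0.33, adjusted p = 0.0473). Ocln, occludin, was higher at night averaged over genotypes (0.25, SE 0.0642, adjusted p = 0.0415), a call that each of the 3 scalings ended (adjusted p of 0.0775 to 0.101). The list's median was -0.071 for DKO against WT averaged over times, with 7 of 10 below 0 beside 42.6% of all genes, and 0.095 for night against day, with 8 of 10 above 0 beside 69.4% of all genes.

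Barrier transport genes beside the members (18 of 20 tested) included 4 that rose and none that fell between day and night averaged over genotypes. Of the 18, 14 were above 0, where 69.4% of all genes were, with a median log2 difference of 0.14 beside 0.049 over all genes. The list had 4 called higher and 1 called lower after median-of-ratios scaling and after quantile normalization, and 2 and 1 after TPM scaling. The 4 were Abcg2, a drug efflux pump (0.40, SE 0.0470, adjusted p = 0.00115), Atp10a, a phospholipid flippase (0.34, SE 0.0449, adjusted p = 0.00297), Slc3a2 (0.22, adjusted p = 0.0175) and Slc7a5 (0.27, adjusted p = 0.0203), which together form a carrier of large neutral amino acids. In WT alone Abcg2 (0.47, adjusted p = 0.0180) and Atp10a (0.36, adjusted p = 0.0301) rose, Abcg2 also under all 3 scalings and Atp10a only after quantile normalization (adjusted p = 0.0386, against 0.0631 after median-of-ratios scaling and 0.0841 after TPM scaling). Without Day WT replicate 1 or any 1 Night WT library, only 1 gene of all was called in WT, so at least 1 of these calls was lost. Between genotypes the list had a median of -0.029. Mfsd2a, a lipid carrier that holds down transcytosis at the barrier, rose in DKO averaged over times (0.40, SE 0.0775, adjusted p = 0.0244), also under all 3 scalings. By day it was 3.99 ± 0.412 FPKM in WT and 6.13 ± 0.990 FPKM in DKO (SD, n = 3, log2 difference 0.51, adjusted p = 0.0475, and 0.0562 to 0.0685 under the 3 scalings).

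Genes of leakage and endothelial activation (7 of 13 tested) included 1 that rose at night, Vcam1, a leukocyte adhesion molecule (0.33, SE 0.0617, adjusted p = 0.0140), and none called between genotypes. In the list of Wnt signalling and barrier transcription (20 of 23 tested) none was called between genotypes, and Apcdd1, a Wnt inhibitor and target (0.35, adjusted p = 0.0362), and Fzd4, a receptor for Wnt and Norrin (0.38, adjusted p = 0.0423), were higher at night, but neither call held under any of the 3 scalings (adjusted p of 0.0643 to 0.102). Of the vascular endothelial growth factor and angiopoietin genes (13 of 14 tested) Hif1a, an oxygen-regulated transcription factor, was higher at night (0.20, SE 0.0415, adjusted p = 0.0199, and 0.0566 to 0.104 under the 3 scalings), with no call between genotypes. Among arterial and venous genes (15 of 16 tested) Mgp, a matrix protein of arterial cells and of fibroblasts, fell in DKO (-0.68 averaged over times, SE 0.107, adjusted p = 0.0143) and rose at night (0.82, SE 0.107, adjusted p = 0.00251). Gkn3, an arterial marker, rose at night (0.65, SE 0.111, adjusted p = 0.00969). Vcam1 stands in this list as well.

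Among paralogs of the members (8 of 14 tested) Cldn10 rose in DKO by day (0.46, SE 0.0897, adjusted p = 0.0327) and Cldn11, the claudin of myelin, was higher at night averaged over genotypes (0.33, adjusted p = 0.0421, and 0.0710 to 0.0915 under the 3 scalings). Slc2a3, the neuronal glucose carrier, was at 17.3 to 24.2 FPKM over the 12 libraries, and was not called. Slco1c1, the thyroxine and organic anion carrier, which was counted in the barrier transport list, was at 9.82 to 16.5 FPKM and was not called.

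**Figure D3:**
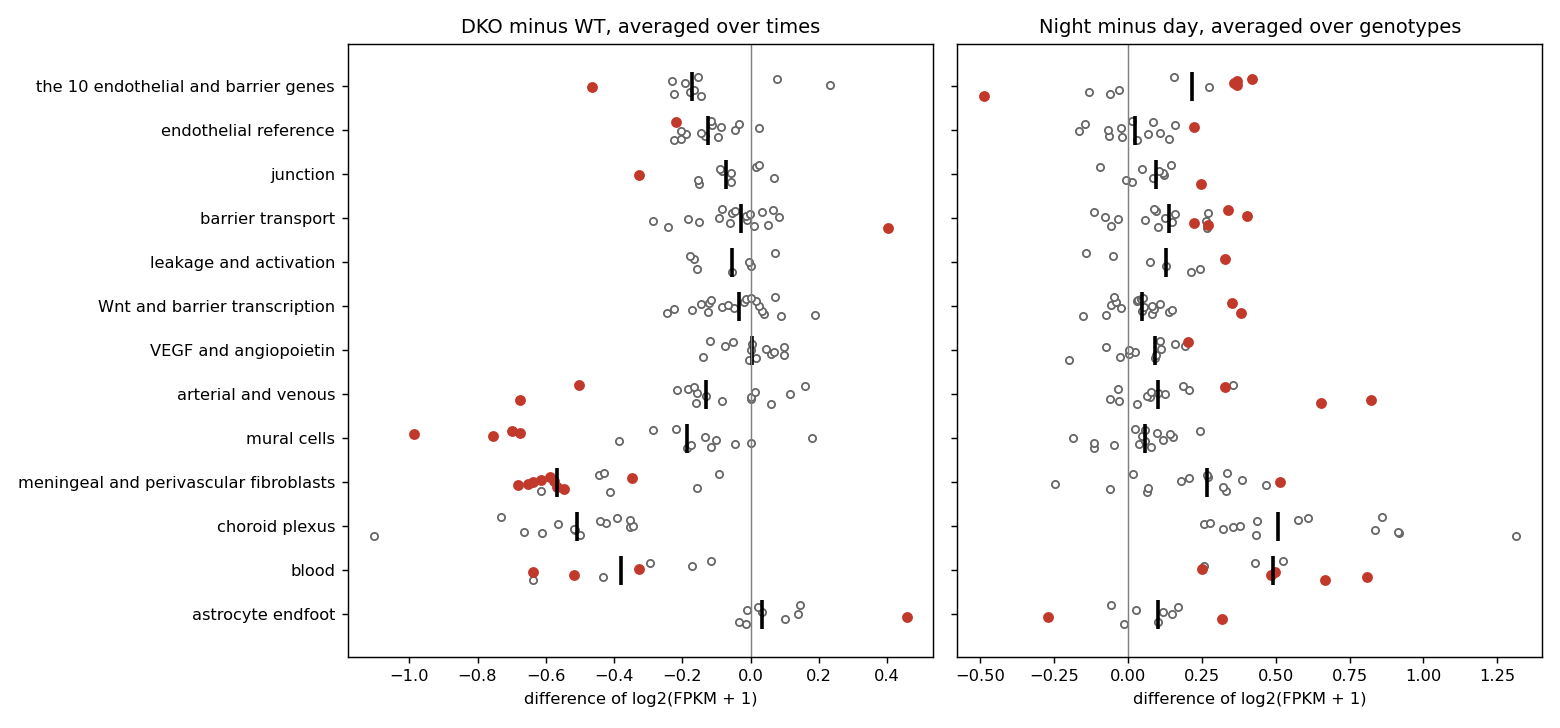
Differences of log2(FPKM + 1) for each tested gene of the member list and of 12 companion lists, DKO minus WT averaged over times (left) and night minus day averaged over genotypes (right). Red points have an adjusted p under 0.05, open points do not, and the black bar is the list's median, which for the 10 genes is -0.17 (left) and 0.22 (right).

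Markers of other vascular and border tissue moved with genotype in the same direction as Vwf. Of the mural cell markers (15 of 16 tested) 4 fell in DKO by day and averaged over times, all genes of smooth muscle contraction: Acta2 (-0.76 averaged over times), Tagln (-0.98), Myl9 (-0.70) and Myh11 (-0.68). The list's median was -0.19 averaged over times with 13 of 15 below 0, beside 42.6% of all genes. Pdgfrb, the pericyte receptor, was 3.02 ± 0.528 FPKM in Day WT, 2.33 ± 0.282 in Day DKO, 2.49 ± 0.0864 in Night WT and 2.25 ± 0.189 in Night DKO (SD, n = 3). Summed levels of the mural list were 57.4 to 83.5 FPKM in Day WT, 49.2 to 58.6 in Day DKO, 69.0 to 84.5 in Night WT and 55.2 to 56.4 in Night DKO. Markers of meningeal and perivascular fibroblasts were below 0 in DKO for 15 of 15 genes averaged over times (median -0.57), beside 42.6% of all genes, and 9 fell. Their summed levels were 69.9 to 97.8 FPKM in Day WT, 41.7 to 57.1 in Day DKO, 80.0 to 101 in Night WT and 61.0 to 69.4 in Night DKO, with Col1a1 between 0.745 and 2.83 FPKM over all libraries. The part of these tissues in the Vwf result was not tested beyond the covariate fits: with the fibroblast level as a covariate the Vwf difference was -0.32 (adjusted p = 0.883), in a fit where 0 of all genes were called between genotypes and 757 had an unadjusted p under 0.05.

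Markers of blood differed with time and genotype, and those of choroid plexus spread widely between libraries. Of 8 tested blood genes 5 were called higher at night averaged over genotypes (median 0.49), 1 of them under each of the 3 scalings, and 3 fell in DKO averaged over times (median -0.38). Hbb-bs, a beta globin, was 67.9 ± 14.0 FPKM in Day WT, 51.1 ± 4.99 in Day DKO, 104 ± 19.4 in Night WT and 66.0 ± 11.6 in Night DKO (SD, n = 3). Choroid plexus genes summed to 1183 to 2923 FPKM in Day WT, 79.1 to 1882 in Day DKO, 1431 to 3303 in Night WT and 2009 to 3168 in Night DKO. They had a median log2 difference of -1.01 in DKO by day and of 0.51 at night averaged over genotypes, with none of 14 called, and Ttr ranged from 55.3 to 3032 FPKM. No marker of the mural, fibroblast, choroid plexus and blood lists was at 0 in all libraries. With choroid plexus level added to the model the 5 night-to-day calls were kept, whereas the Vwf difference was -0.38 (adjusted p = 0.132). With the fibroblast level as a covariate the 5 night-to-day differences were -0.51 for Cldn5, 0.38 for Ly6c1, 0.32 for Ly6a, 0.36 for Slco1a4 and 0.30 for Slc2a1, and none was called (adjusted p of 0.0632 to 0.112), in a fit where 74 genes in all were called. The part of blood in these results was not tested.

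**Figure D4:**
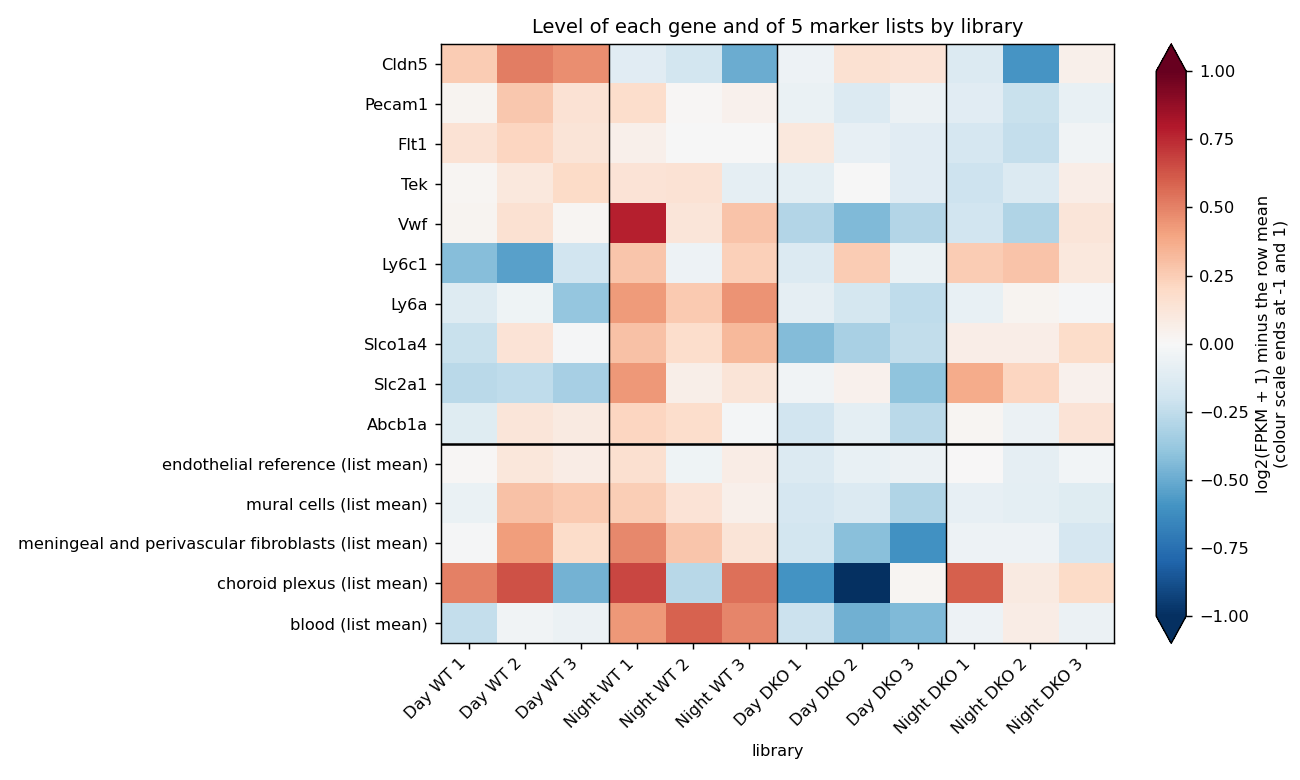
Level of each of the 10 genes and mean level of 5 marker lists in each library, as log2(FPKM + 1) minus the mean of its row; the colours end at -1 and 1. Night WT replicate 1 is above the mean for 9 of the 10 genes, and Day DKO replicates 1 and 3 for 1 of the 10 each.

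Library by library, the number of the 10 genes above their own mean ran from 1 to 9. Night WT replicate 1 was above the gene's mean for 9 of the 10 genes, Night WT replicate 2, Day WT replicate 2 and Night DKO replicate 3 for 7 each, and Day DKO replicates 1 and 3 for 1 each. Among the genes whose pattern was most like the mean of the 10 standardized profiles, out of 11112 genes with a mean of at least 1 FPKM, were Vim (Pearson r = 0.953 over 12 libraries), Smo (0.934), Islr (0.932), Polh (0.932), Cp (0.914), Nid1 (0.911), Ptrf (0.911) and Trappc6a (0.907). These points share libraries, groups and tissue makeup, so the correlations are descriptions.

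Lists of other cell types and responses were read for the same comparisons. Astrocyte endfoot genes (9 tested) had a median of 0.034 between genotypes and 0.10 between times, beside 0.014 and 0.049 over all genes. Kcnj10, a potassium channel of astrocytes, was higher in DKO (0.46, adjusted p = 0.00721) and, against the sign of the list's median, lower at night (-0.27, SE 0.0629, adjusted p = 0.0290), both also under all 3 scalings. Gjb6, a gap junction protein, was higher at night (0.32, adjusted p = 0.0324), but under none of the 3 scalings (0.0634 to 0.0970). Of 8 microglial genes 5 rose in DKO averaged over times (median 0.30, and 3 after quantile normalization) and none was called between times. Oligodendrocyte genes (6 tested) had a median of -0.24 between genotypes, with Opalin lower in DKO (-0.40, adjusted p = 0.0336), and of 0.17 between times, with Mog higher at night (0.33, adjusted p = 0.0251, and 0.0576 after TPM scaling). Of the interferon response genes (12 tested), read beside Ly6a, Ifitm3 (-0.44) and Gbp2 (-0.22) fell in DKO averaged over times, Gbp2 after only 1 of the 3 scalings, and Ifit3 rose at night (0.40, adjusted p = 0.0207). Clock genes (16 tested) separated the times, with 9 higher and 1, Arntl, lower at night averaged over genotypes (5 or 6 higher and 1 lower under the 3 scalings), among them Dbp (1.42, SE 0.113, adjusted p = 8.91e-05). Of 10 glucocorticoid-responsive genes 6 rose at night, 4 or 5 of them under the 3 scalings, including Fkbp5 (0.40, adjusted p = 0.00684) and Tsc22d3 (0.81, adjusted p = 0.00948).

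**Figure D5:**
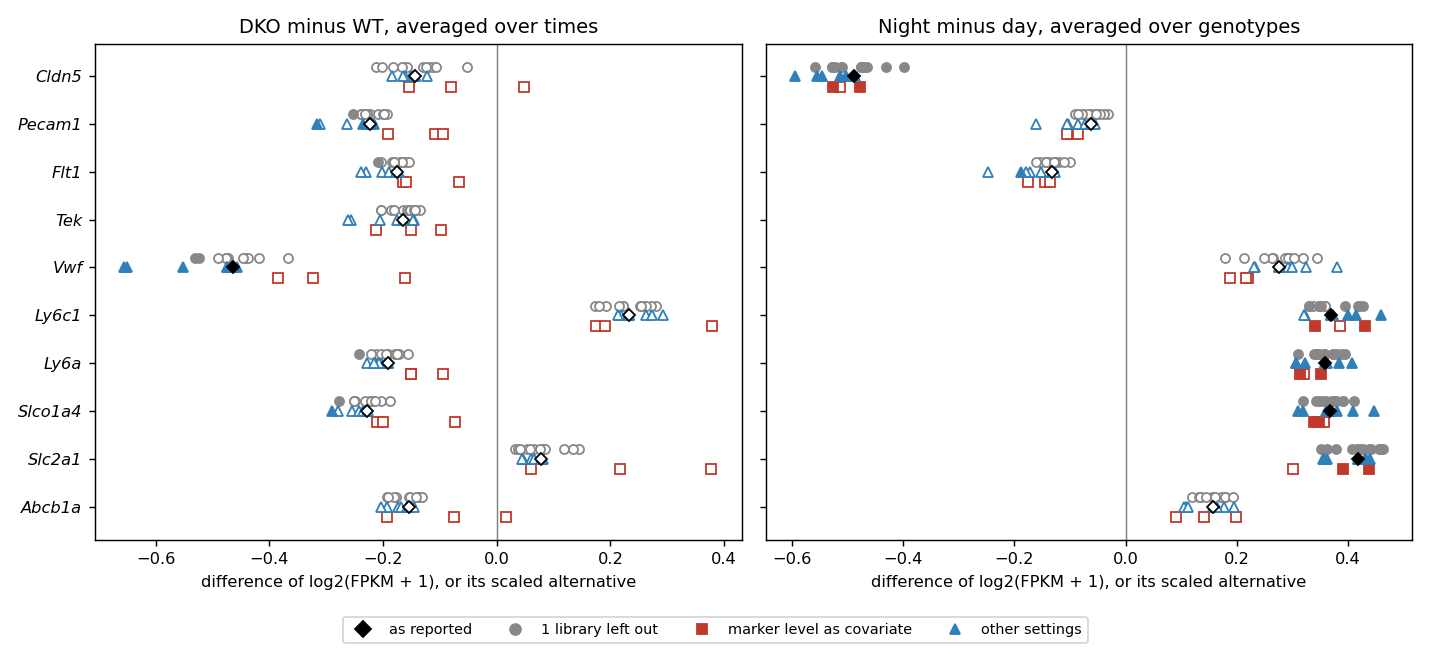
Difference of each of the 10 genes under every processing choice, DKO minus WT averaged over times (left) and night minus day averaged over genotypes (right). Diamonds are the reported values, circles leave out 1 library, squares add a marker level as a covariate and triangles are the other settings; filled symbols have an adjusted p under 0.05, and differences within 0.05 of 0 in the reported fit are left out. Cldn5 stays below 0 and Ly6c1, Ly6a, Slco1a4 and Slc2a1 above 0 between night and day, whereas the Vwf difference between genotypes runs from -0.66 to -0.16.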

How the data were processed

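Per the labels' protocols, 1 library per sample was made from total RNA of mouse brain with a stranded kit after removal of ribosomal RNA, and the submitters' processing notes name build GRCm38.p6. The sources used here name no aligner, quantifier or read number. FPKM values were deposited by the authors in 12 tables, a unit read from the values themselves, which sum to 151059 to 175692 per library. Symbols of 27 genes that had turned into dates were restored from gene IDs. Values were tested as log2(FPKM + 1), which understates changes of low genes, over 12689 genes that reached 0.5 FPKM in 3 or more of the 12 libraries. The test was limma 3.58.1 (R 4.3.3) with 1 mean per group, a variance prior with an intensity trend and Benjamini-Hochberg adjustment, 2-sided. It was run on simulated data in which genes varied independently. That run cannot show how calls behave where many genes of a library shift together. Every adjusted p in the text comes from limma.

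The 10 genes and the companion lists were chosen with earlier results of these data known. The text names all 10, Psen2, up to 5 called genes of each list per comparison, a few paralogs and defining markers, and genes among those most like the mean of the 10. Some genes that this rule names are not reported here. Kdr, Tie1 and Cdh5 were named outside this rule, after their values were seen. The scalings of the companion lists were added after seeing the data. Alternatives covered the pseudocount, the filter, 3 scalings, quality weights, a replicate block, marker levels as covariates, the groups compared alone and leaving out each library. Gene coordinates are those of RefSeq on GRCm38.p6. Group values are mean ± SD.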

Additional observations from a re-analysis of the deposited data

How the results depend on the processing

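Of 70 member differences, 60 lay at least 0.05 from 0 and were recomputed under up to 25 alternatives, and 1468 of the 1474 values kept their sign. The other 6 were the averaged Cldn5 genotype difference with the endothelial covariate (0.048), the Vwf interaction without Night WT replicate 1 (0.082; -0.25 to 0.082 over the libraries left out), Ly6c1 between genotypes at night without Night WT replicate 2 (-0.044; -0.044 to 0.12 over the libraries left out), Abcb1a with the fibroblast covariate between genotypes at night (0.043) and averaged over times (0.015), and Abcb1a in WT between night and day under TPM scaling (-0.00055). None of these was called, and the cause was not tested. Changing the filter, adding the replicate block or fitting only the groups compared leaves a difference itself as it was. So does leaving out a library of a group outside the comparison. Values from those alternatives could not change sign, so the count of kept signs overstates stability. No member was called by day, at night or in the interaction under any alternative run. In WT between night and day, 3 members were called, 2 under median-of-ratios scaling and under quantile normalization, 1 without a filter on low values, under TPM scaling, and with the fibroblast or the endothelial covariate, and 0 with only the groups compared. Leaving out single libraries gave 0 to 3 there: 0 without Day WT replicate 1 or any 1 Night WT library, and 1 without Day WT replicate 2 or Night DKO replicate 1. In DKO between night and day, 0 were called, 1 under TPM scaling (Slco1a4), and 0 to 1 when single libraries were left out (1 without Day WT replicate 1 or 2). Between genotypes averaged over times, 1 was called, 0 without a filter and with each of the 3 covariates, 2 with median-of-ratios scaling, quantile normalization or quality weights, 3 under TPM scaling, and 0 to 2 when single libraries were left out. Between times averaged over genotypes, 5 were called, 3 under TPM scaling, 0 with the fibroblast covariate, and 4 to 5 when single libraries were left out. The groups compared alone could not be used for the interaction and the averaged comparisons. Among all called genes, by day DKO against WT split into 101 higher and 49 lower, and 62 and 65, 51 and 45, and 51 and 59 under median-of-ratios scaling, quantile normalization and TPM scaling; for night against day in DKO it was 23 and 15, then 27 and 42, 24 and 39, and 23 and 35. Same-numbered replicates of different groups correlated in their deviations at -0.116 to 0.247 (median 0.0568, 7 of 18 pairs over 0.1), and differently numbered ones at -0.204 to 0.220 (median -0.029, 4 of 36 over 0.1). Pairing was accepted only where every pair was over 0.1, which was not met, and Day WT replicate 3 correlated best with Night WT replicate 2, so the numbers were not taken as pairs, although the same-numbered median was the higher one. Failing so strict a rule does not show that same-numbered libraries share nothing. A shared effect of the replicate number was not tested beyond the replicate block. With the replicate block 2 members were called in WT between night and day, Ly6a (adjusted p = 0.0230) and Slc2a1 (0.0414, not called without the block), while Cldn5 (0.0554) and Ly6c1 (0.0578) were lost. The block left 1 call between genotypes averaged over times, 5 between times averaged over genotypes and 0 in the other comparisons. Depth is unknown, so no counting interval limits these values.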
